A study of Rattus norvegicus with 35 samples.

Results

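Propiconazole is a triazole fungicide, and the comparison set its top dose against the middle dose in primary rat hepatocytes, liver cells taken from the animal and kept in culture. The question was which genes appeared, or were lost, only when the dose went from 30 to 100 uM. The members were 6 of the 35 arrays of the series: the 3 titled propiconazole 100 uM and the 3 titled propiconazole 30 uM, and both groups hold 1 array for each Rs code in the titles (Rs256, Rs293, Rs304). What an Rs code marks is not stated, and each 100 uM array was compared with the 30 uM array of the same code. Hepatocytes of all groups were exposed through the medium for 72 h. The other groups compared here were propiconazole at 10 uM, the vehicle DMSO at 0.1%, and myclobutanil and triadimefon at 30 and 100 uM, each with 3 arrays and the same 3 codes. The statistical fit also took in the remaining arrays of the series, whose spread enters every SE and p-value. These were myclobutanil and triadimefon at 10 uM and phenobarbital at 200 uM, with 3 arrays each. The last group was PCN at 30 uM, with 2 arrays and none of Rs256. The submitters call the arrays of a group biological replicates, but whether a code is 1 animal or 1 preparation of cells is not given. The p-values therefore measure only the spread between arrays. That spread is 1 residual for each gene, shared by all 35 arrays and not taken from the 6 members alone. Strain and age of the animals are not stated in the labels used here.

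Triazole fungicides block the fungal lanosterol demethylase, and mammals carry the same enzyme, CYP51, in the sterol pathway. In liver, azoles also meet the nuclear receptors PXR and CAR, which switch on P450s, conjugating enzymes and transporters, and PPARalpha is the receptor that drives fatty acid oxidation in fasting. Cells under oxidant or electrophile load raise genes of the NRF2 pathway, and cells under endoplasmic reticulum or amino acid stress raise ATF4 and, further down, the transcription factor CHOP, encoded by Ddit3.

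RNA was measured on Affymetrix rat expression arrays. Values here are quantile normalized and keep the unit of the deposited log-like scale, whose base is not stated. If the added control transcripts bioC, bioD and cre were at their usual 5, 25 and 100 pM, a doubling was worth 0.487 units (SD 0.0241 over the arrays). The 2 extremes of spread in the whole series lay within the 30 uM group. Before normalization the 30 uM array of Rs293 had an SD over probe sets of 0.941 and the 30 uM array of Rs304 one of 0.646, against 0.659 to 0.754 on the 29 arrays outside the comparison. The 3 arrays at 100 uM had SDs of 0.677 to 0.715. Quantile normalization removes such differences in spread, and results that turn without it are named where they occur. Of 32 core hepatocyte genes with a probe set, 31 lay above the array median on all 6 arrays. Signs of RNA breakdown, read as the 3-prime minus 5-prime difference of Actb and Gapdh, differed between the groups by -0.20 and -0.06 (exact permutation tests, two-sided, p = 0.4 and p = 0.6, where 3 arrays against 3 allow no p below 0.1).

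Of 10490 genes tested, 1018 were higher and 994 lower at 100 uM than at 30 uM, that is 9.7% and 9.48% of the genes (limma with the Rs code as a block, Benjamini-Hochberg adjusted p below 0.05, two-sided). The groups of 3 arrays did not overlap for 910 genes that were higher (8.67%) and 880 that were lower (8.39%). Against DMSO, propiconazole changed 2 genes at 10 uM (0.0191%), 275 at 30 uM (2.62%) and 3075 at 100 uM (29.3%). These comparisons share arrays with one another. The split between higher and lower calls depended on the scaling. Without normalization 244 genes (2.33%) were higher and 1057 (10.1%) lower, and with median centring of each array 302 (2.88%) were higher and 1064 (10.1%) lower. When the 30 uM array of Rs293 was left out as well, the unnormalized values gave 439 higher (4.18%) and 294 lower (2.8%), and centring with scaling of all arrays to a common SD gave 878 higher (8.37%) and 730 lower (6.96%). With normalization and without that array 875 were higher (8.34%) and 773 lower (7.37%). Without the block, 250 (2.38%) were higher and 240 (2.29%) lower, and without all arrays of code Rs304 the total was 780. Of 132 named genes called with the block, 50 remained called without it, 80 on values as deposited and 77 without code Rs304. A fit on the 6 arrays alone called 110 genes, and 31 of the 132 named genes remained called in it. The median change of all genes was 0.01 with normalization and -0.05 without it.

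**Figure D1:**
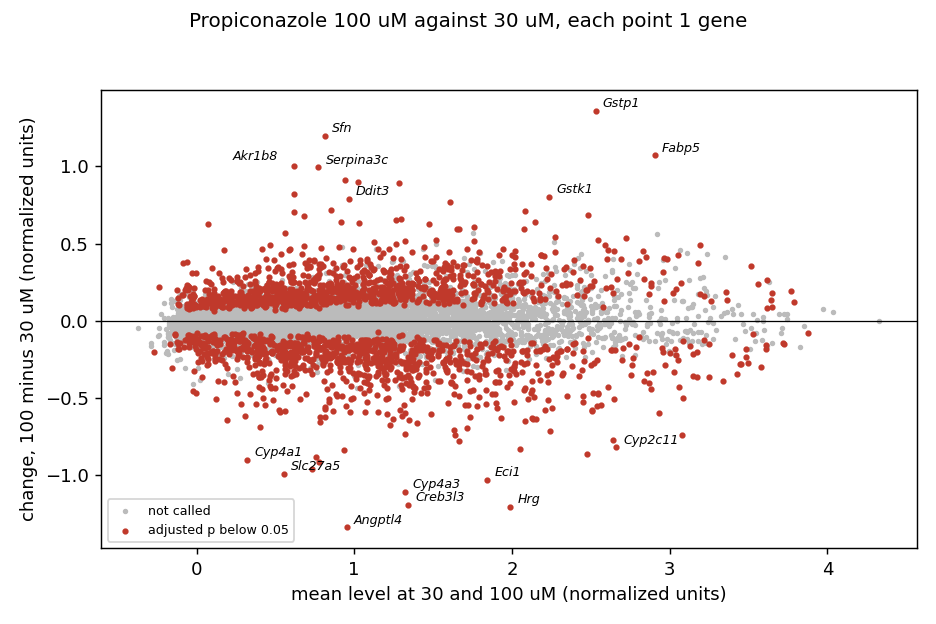
Each point is 1 of the 10490 genes tested, with its mean level at 30 and 100 uM on the x axis and the change from 30 to 100 uM on the y axis, both in normalized units; red points had an adjusted p below 0.05. The named genes stand at the edges of the cloud, with Gstp1 (1.36) at the top and Angptl4 (-1.34) at the bottom.

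The 3 promoters printed here are of genes among the 12 largest rises or falls, chosen after their values were seen because each holds 1 match to a motif searched for. They are RefSeq sequences on the GRCr8 build, from 250 bases before to 50 after the annotated gene start, and capitals mark the match. Gstp1, chr1:210769656-210769955 on the minus strand, holds a match to TGACNNNGC, the core of the antioxidant response element that NRF2 reads, starting at -61. Cox6a2, chr1:192219667-192219966 on the minus strand, holds a match to TGATGNAA, the amino acid response element read by ATF4 and CHOP, on the reverse strand starting at -113. Angptl4, chr7:15258632-15258931 on the minus strand, holds the TATA box letters TATAAA starting at -39.
Gstp1: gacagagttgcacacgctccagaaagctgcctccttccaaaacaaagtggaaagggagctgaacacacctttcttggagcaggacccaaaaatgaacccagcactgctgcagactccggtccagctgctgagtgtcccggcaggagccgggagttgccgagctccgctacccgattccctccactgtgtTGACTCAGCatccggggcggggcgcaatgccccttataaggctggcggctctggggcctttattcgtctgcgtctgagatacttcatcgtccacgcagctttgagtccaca
Cox6a2: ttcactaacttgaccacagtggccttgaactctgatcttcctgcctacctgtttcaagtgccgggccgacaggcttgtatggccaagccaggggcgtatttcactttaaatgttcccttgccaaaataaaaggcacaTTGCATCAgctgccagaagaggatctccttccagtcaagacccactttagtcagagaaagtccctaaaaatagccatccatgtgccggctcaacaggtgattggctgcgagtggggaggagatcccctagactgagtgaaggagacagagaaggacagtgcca
Angptl4: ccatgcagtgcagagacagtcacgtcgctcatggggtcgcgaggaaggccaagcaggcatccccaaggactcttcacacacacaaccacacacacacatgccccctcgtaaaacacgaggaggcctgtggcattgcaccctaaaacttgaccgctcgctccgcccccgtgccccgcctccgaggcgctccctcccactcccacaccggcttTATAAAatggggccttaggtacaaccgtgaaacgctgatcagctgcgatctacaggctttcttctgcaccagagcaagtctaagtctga
Over the 8760 tested genes with a promoter in the table, TGACNNNGC (both strands) stood in 14.9% of all windows, in 16.5% of those of genes that were higher at 100 uM and in 15.7% of those that were lower. TGATGNAA (both strands) stood in 1.99%, 2.05% and 2.83%, the direct repeat 1 motif that PPARalpha reads (both strands) in 0.365%, 0.456% and 0.614%, and TATAAA (gene strand) in 4.59%, 3.64% and 5.77%. Of the 24 genes with the largest changes, 18 had a promoter in the table. A match in such a window is a description of the letters.

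Among the genes that appeared at the top dose, Sfn, which encodes the cell cycle brake 14-3-3 sigma and is a target of p53, had the smallest p of the largest rises. It lay at 0.19, -0.04 and 0.04 units in DMSO, and at 0.34, 0.09 and 0.21 at 30 uM in Rs256, Rs293 and Rs304. At 100 uM it lay at 1.64, 1.15 and 1.45, so every array at the top dose stood far above every array at the lower doses. The change was 1.20 (SE 0.0702, n = 3 and 3, adjusted p = 3.35e-11), against 0.15 (adjusted p = 0.295) from DMSO to 30 uM. The step from 30 to 100 uM exceeded that from 10 to 30 uM by 1.11 (adjusted p = 2.24e-05), in a test that called 271 genes in all (2.58%). Without the block that test called 4 genes, and Sfn was not among them (adjusted p = 0.187).

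Gstp1, the pi-class glutathione transferase that is scarce in normal rat hepatocytes, showed the largest rise. It lay at 1.77, 1.46 and 2.32 at 30 uM and at 2.90, 3.21 and 3.52 at 100 uM, and its DMSO levels of 1.68, 2.08 and 2.22 sat with those at 30 uM. The change was 1.36 (SE 0.18, adjusted p = 8.98e-06), and the step exceeded the one from 10 to 30 uM by 1.49 (adjusted p = 0.0119). This difference between the steps was called in 5 of 11 other settings, and not without the block (adjusted p = 0.447).

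Ddit3, which encodes CHOP, stood at 0.69, 0.45 and 0.56 at 30 uM and at 1.23, 1.39 and 1.46 at 100 uM. The groups did not overlap, and the DMSO arrays, at 0.78, 0.57 and 0.45, lay in the range of those at 30 uM or near it. Its change was 0.79 (SE 0.0826, adjusted p = 4.69e-07) and it exceeded the step from 10 to 30 uM by 0.88 (adjusted p = 0.00245), which was not called without the block (adjusted p = 0.0665). The 100 uM level was 0.76 above DMSO (adjusted p = 1.91e-07).

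Serpina3c and Serpina3l, serine protease inhibitors of a gene family with close copies in the rat, rose by 0.99 (SE 0.0773, adjusted p = 4.85e-09) and 0.89 (SE 0.0791, adjusted p = 4e-08). Serpina3c had a mean of 0.28 ± 0.38 (SD) at 30 uM and 1.27 ± 0.25 at 100 uM, with the Rs256 arrays highest in both groups. The groups did not overlap, although the levels of the codes differed, and without the block neither Serpina3c nor Serpina3l was called (adjusted p = 0.0502 and 0.13). Probe sets of this family can read several members, so which member moved is uncertain.

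Cox6a2, the muscle form of a cytochrome c oxidase subunit, moved from 0.04, 0.64 and 0.78 to 0.95, 1.59 and 1.65 (change 0.91, SE 0.121, adjusted p = 9.72e-06). Sdcbp2, a scaffold protein of the syntenin family, went from 0.72, 0.43 and 0.58 to 1.65, 1.32 and 1.46 (change 0.90, SE 0.0748, adjusted p = 1.45e-08). For both genes each array at 100 uM was above each at 30 uM. Akr1b8, an aldo-keto reductase, and Gdf15, a secreted stress factor, were uneven over codes. Akr1b8 rose from 0.36 to 2.04 in Rs256, from -0.06 to 0.64 in Rs293 and from 0.05 to 0.69 in Rs304 (change 1.0, SE 0.191, adjusted p = 0.000536). Gdf15 rose from 0.24 to 1.52, from 0.09 to 0.80 and from 0.29 to 0.76 (change 0.82, SE 0.157, adjusted p = 0.000562). In both the Rs256 rise was the largest, and without the 100 uM array of Rs256 the changes were 0.67 and 0.57, both still called.

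Fabp5, a fatty acid binding protein, and Gstk1, a glutathione transferase of mitochondria and peroxisomes, were already somewhat above DMSO at 30 uM, by 0.40 for Fabp5 (adjusted p = 0.0649). Fabp5 moved from 2.20, 2.41 and 2.50 to 3.53, 3.55 and 3.23 (change 1.07, SE 0.119, adjusted p = 9.05e-07), and this step exceeded the one from 10 to 30 uM by 0.998 (95% interval 0.57 to 1.42, adjusted p = 0.0105), a difference called in 4 of 11 other settings and not without the block (adjusted p = 0.281). Gstk1 was 0.47 above DMSO at 30 uM (adjusted p = 0.0386) and rose by a further 0.80 (SE 0.125, adjusted p = 6.09e-05), with no call for a difference between the steps (0.54, adjusted p = 0.181). On values as deposited the changes of Fabp5 and Gstk1 were 0.60 and 0.43 and neither was called. Dnase2b, an acid nuclease, closed the list of the largest rises at 0.77 (SE 0.106, adjusted p = 1.41e-05). It was not called without the block, where its adjusted p was 0.41.

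**Figure D2:**
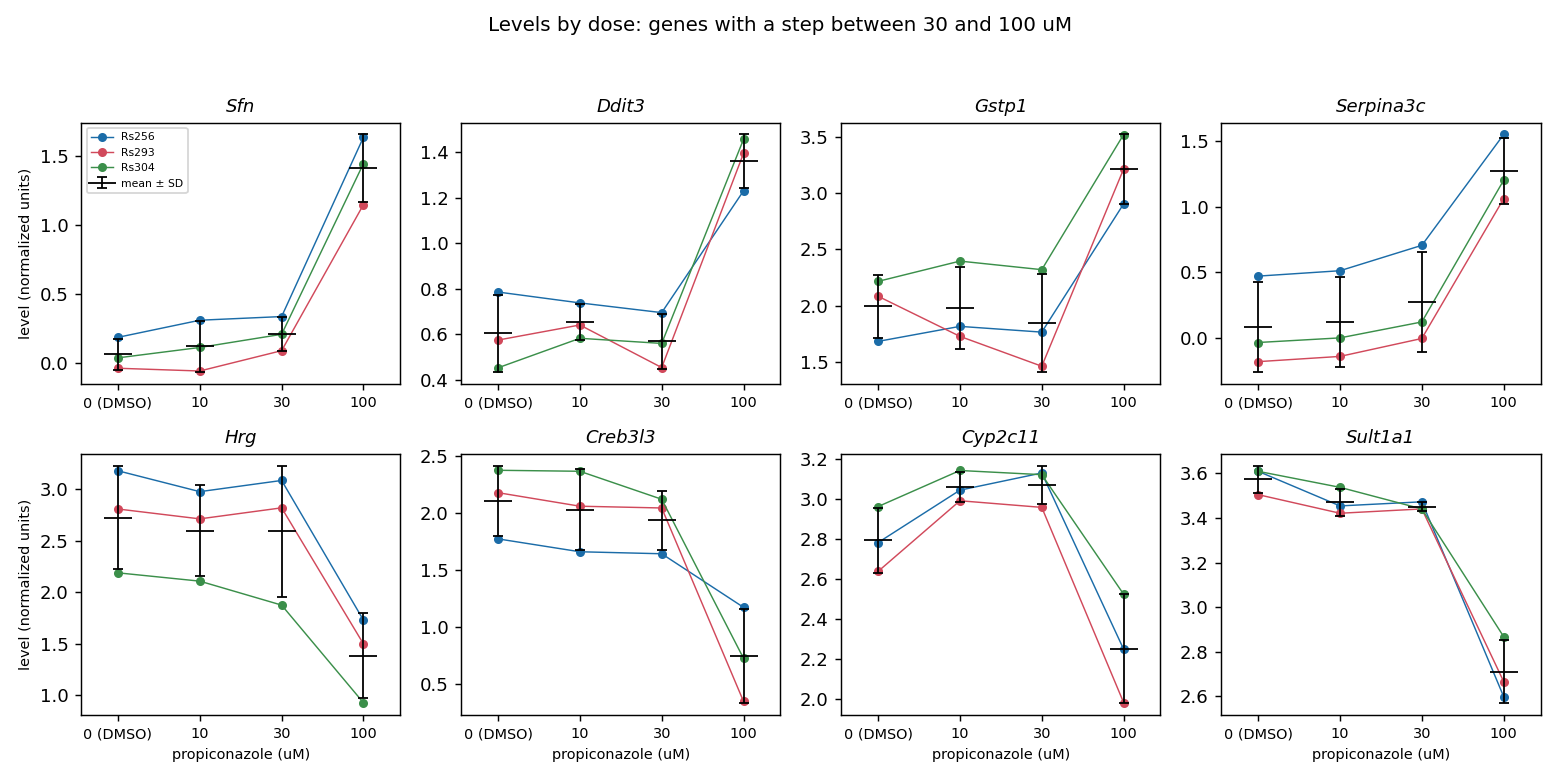
Levels in normalized units against the dose of propiconazole for 8 genes; coloured points and lines are the 3 Rs codes, black bars the mean ± SD of 3 arrays. Sfn, Ddit3, Gstp1 and Serpina3c stay near their DMSO level up to 30 uM and are higher at 100 uM, while Hrg, Creb3l3, Cyp2c11 and Sult1a1 are lower at 100 uM.

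The falls were led by genes of fatty acid use and by secreted liver proteins. Angptl4, a secreted inhibitor of lipoprotein lipase and a PPARalpha target, lay at 1.49, 2.04 and 1.33 at 30 uM and at 0.29, 0.31 and 0.25 at 100 uM. The groups were far apart, and DMSO lay above both at 2.14, 2.21 and 2.07. The change was -1.34 (SE 0.118, adjusted p = 3.91e-08), against -0.52 from DMSO to 30 uM (adjusted p = 0.0158). The upper step differed from the one between 10 and 30 uM by -1.13 (adjusted p = 0.00393). That difference was called in 7 of 11 other settings, and not without the block (adjusted p = 0.186), without code Rs304 (0.0727) or on values as deposited (0.0522).

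Hrg, a plasma glycoprotein made by hepatocytes, went from 3.08, 2.82 and 1.87 at 30 uM to 1.73, 1.50 and 0.93 at 100 uM. Rs304 was lowest in both groups, and its 30 uM array was nearer to the top-dose arrays of the other codes than to their 30 uM arrays. The change was -1.21 (SE 0.125, adjusted p = 4.18e-07). Creb3l3, a liver transcription factor held in the endoplasmic reticulum membrane, went from 1.64, 2.05 and 2.12 to 1.17, 0.35 and 0.72 (change -1.19, SE 0.168, adjusted p = 1.86e-05). Its fall was smallest in Rs256. For neither gene was 30 uM different from DMSO by the test (changes of -0.13 and -0.17, adjusted p = 0.674 and 0.684).

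Slc27a5, which activates bile acids and fatty acids, fell by 0.99 (SE 0.183, adjusted p = 0.000403), and Lox, the collagen crosslinking enzyme and a marker of fibroblasts, fell by 0.96 (SE 0.171, adjusted p = 0.00027). Lox stood at 2.46 in Rs256 and at 0.36 and 0.83 in the other codes at 30 uM, and at 0.78, -0.03 and 0.01 at 100 uM, so the groups overlapped. Without the block neither Slc27a5 nor Lox was called (adjusted p = 0.13 and 0.53). Slco1a4, an uptake transporter, fell by 0.91 from a 30 uM level that was 0.41 above DMSO (adjusted p = 0.203 for that rise). Vnn1, a pantetheinase, Rarres2, which encodes chemerin, and Ddc, the aromatic amino acid decarboxylase, fell by 0.88, 0.86 and 0.84, with adjusted p of 3.41e-07, 6.53e-07 and 7.54e-05. Rarres2 moved from 2.84, 2.96 and 2.92 to 2.26, 1.65 and 2.23, after values of 3.05, 3.02 and 3.01 in DMSO. The other probe set of Ddc had a change of -0.04 (adjusted p = 0.541 with each probe set a feature).

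PPARalpha targets moved one way. Of 26 tested, 19 fell and 0 rose, beside 9.48% of all genes that fell; the list median was -0.47 beside 0.01 for all genes. Besides Angptl4 and Creb3l3, the falls took in the fatty acid hydroxylases Cyp4a3 and Cyp4a1, and enzymes of fatty acid oxidation such as Eci1. Eci1 lay at 2.22, 2.50 and 2.36 at 30 uM and at 1.27, 1.23 and 1.49 at 100 uM (change -1.03, SE 0.0784, adjusted p = 4.01e-09). Plin2, the coat protein of lipid droplets, fell by 0.43 (SE 0.0603, adjusted p = 1.86e-05), with means of 3.28 ± 0.08 and 2.85 ± 0.06. The median of the list was negative in every scaling tried. It was -0.64 on values as deposited and -0.42 on those without the 30 uM array of Rs293. There 10 members fell, beside 2.8% of all genes. Without the block 13 fell, beside 2.29% of all genes.

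Cyp4a3 and Cyp4a1 were lost in steps rather than at the top dose alone. Cyp4a3 lay at 2.73, 2.73 and 2.89 in DMSO, at 1.91, 1.87 and 1.86 at 30 uM and at 0.84, 0.72 and 0.75 at 100 uM. It fell by 0.90 to 30 uM (adjusted p = 0.00508) and by 1.11 more to 100 uM (SE 0.166, adjusted p = 3.92e-05), and the steps did not differ by the test (-0.62, 95% interval -1.21 to -0.03, adjusted p = 0.254). Cyp4a1 fell by 1.0 to 30 uM (adjusted p = 0.00815) and by 0.90 more (SE 0.202, adjusted p = 0.00239), to levels of -0.19, -0.07 and -0.12, which are under the array median. Whether a further fall of Cyp4a1 could be read from probes at that level was not tested. Without the block its change was not called (adjusted p = 0.15). By the difference between the steps, 7 of the 26 targets fell more from 30 to 100 uM than from 10 to 30 uM, beside 1.4% of all genes. Against DMSO, 12 of the 26 targets were lower at 30 uM (0.867% of all genes were) and 24 at 100 uM (13.6%). The probes of Cyp4a3 and Cyp4a1 may read close relatives of the same family.

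NRF2 targets Gstp1 and Akr1b8 were among the 12 largest rises. Of 23 tested, 9 rose and 1 fell, beside 9.7% and 9.48% of all genes, with a median of 0.27. Apart from Gstp1 and Akr1b8, they were Hmox1, which degrades heme, Nqo1, a quinone reductase, Akr7a3, Srxn1, Txnrd1, Gclm and Abcc4. Nqo1 went from 2.10, 1.62 and 1.75 to 2.58, 2.41 and 2.40 (change 0.64, SE 0.0889, adjusted p = 1.48e-05), with groups that did not overlap. Hmox1 went from 2.88, 1.68 and 1.85 to 3.33, 2.61 and 2.52 (change 0.69, SE 0.108, adjusted p = 7.31e-05). Here the 30 uM array of Rs256 exceeded 2 arrays at 100 uM, and without the block Hmox1, Srxn1 and Akr7a3 were not called (adjusted p = 0.47, 0.71 and 0.23). At 30 uM against DMSO 3 members were already higher (1.75% of all genes were), and at 100 uM 14 were (15.7%). Gclc, which makes the rate-limiting subunit for glutathione, had a change of 0.09 that was not called. On values as deposited the list had 3 rises, beside 2.33% of all genes, and a median of 0.04.

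Of 33 genes of endoplasmic reticulum stress and ATF4 tested, 9 rose and 2 fell, beside 9.7% and 9.48% of all genes, with a median of 0.07. Ddit3 led, followed by Atf3 and Ppp1r15a, stress genes of the ATF4 branch, at 0.46 (SE 0.148, adjusted p = 0.0281) and 0.41 (SE 0.0939, adjusted p = 0.00297), and by Slc3a2, part of an amino acid exchanger, at 0.40 (SE 0.0742, adjusted p = 0.000447). Sdf2l1, an endoplasmic reticulum protein, rose by 0.34 (SE 0.0805, adjusted p = 0.00401) and Trib3, a CHOP target, by 0.33. The chaperone Hsp90b1 fell by 0.33 (SE 0.0696, adjusted p = 0.00133), and Hspa5, the main chaperone of that compartment, had a change of -0.07, Chac1 one of -0.10 and Asns one of 0.07, with no call. Atf3 went from 0.68, 0.77 and 0.84 to 1.66, 0.86 and 1.17, and without the 100 uM array of Rs256 its change was 0.23, without the 30 uM array of that code 0.42 and without the 30 uM array of Rs304 0.48, none of them called. The list median was -0.19 on values as deposited and 0.03 there without the 30 uM array of Rs293. In the former Ddit3 was its 1 call, beside 2.33% of all genes higher and 10.1% lower. Without the block 2 members rose, beside 2.38% of all genes, and Atf3, Ppp1r15a, Slc3a2, Sdf2l1 and Hsp90b1 were not called.

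Of 13 p53 targets tested, 6 rose and 0 fell, beside 9.7% and 9.48% of all genes, with a median of 0.20. Beside Sfn they were Plk2, a stress kinase, Gadd45a, Tp53inp1, Mdm2, which degrades p53, and Ccng1. Plk2 went from 1.08, 1.13 and 1.56 to 1.80, 1.75 and 1.80 (change 0.52, SE 0.0962, adjusted p = 0.000395), from a 30 uM level 0.29 under DMSO (adjusted p = 0.108). Tp53inp1 rose by 0.26 (SE 0.0596, adjusted p = 0.00303) and Mdm2 by 0.22 (SE 0.0663, adjusted p = 0.0186). Cdkn1a, which encodes p21 and is the best known p53 target, was not called: it lay at 1.68, 1.81 and 1.63 and at 1.94, 1.53 and 1.46 (change -0.06, SE 0.1, adjusted p = 0.714). Its other probe set had a change of 0.22 (adjusted p = 0.0545 with each probe set a feature), opposite in sign. The rises of Gadd45a and Ccng1, 0.29 and 0.20, turned to -0.01 and -0.19 on values as deposited, where the list median was -0.01. Without the block 2 members rose, beside 2.38% of all genes, and Plk2, Mdm2, Gadd45a and Ccng1 were not called. Mdm2 was not called without the 100 uM array of Rs256 (0.18) or of Rs304 (0.20) or the 30 uM array of Rs293 (0.18), Ccng1 was not without either array of Rs293 (0.16 and 0.17), and Gadd45a, at 0.22 to 0.32, was not with any 1 of 5 of the 6 arrays left out. Among 15 cell cycle genes 4 rose, Cdkn3 (0.20), Pcna (0.19), Ccne1 (0.16) and Mcm4 (0.16), and of 15 genes of cell death 2 rose and 1 fell.

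**Figure D3:**
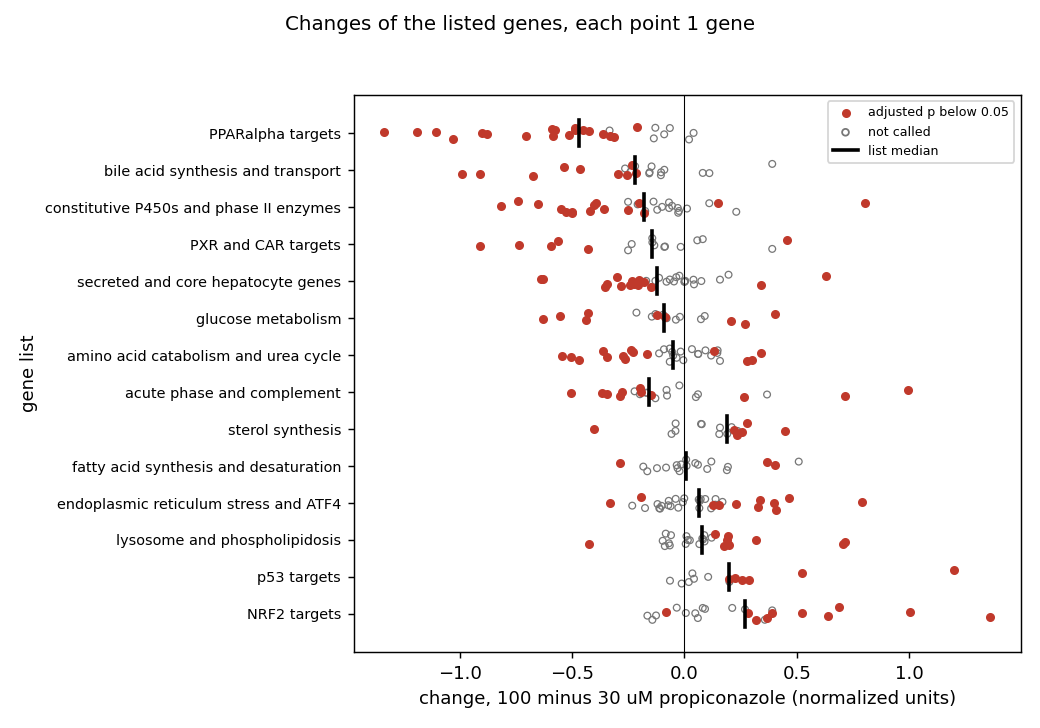
Change from 30 to 100 uM in normalized units for the tested members of 14 gene lists; each point is 1 gene, filled red where its adjusted p was below 0.05, and black bars are list medians. PPARalpha targets lie to the left (median -0.47) and NRF2 targets to the right (median 0.27); on values as deposited the medians of the sterol, endoplasmic reticulum stress, lysosome and p53 lists were negative.

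Some genes that propiconazole raised at 30 uM were lower again at 100 uM. Because both changes share the 30 uM arrays, error in those arrays would give the same shape, so levels at 10 uM and in DMSO are given beside them. Ugt2b1, a glucuronosyltransferase, lay at 2.55, 2.31 and 2.50 in DMSO, at 3.07, 3.10 and 3.00 at 10 uM, at 3.36, 3.24 and 3.09 at 30 uM and at 2.62, 2.51 and 2.79 at 100 uM. Its level at the top dose was below every array at 10 and 30 uM and was 0.18 above DMSO (adjusted p = 0.177). The fall from 30 uM was 0.59, a change of -0.59 (SE 0.0984, adjusted p = 0.000133).

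Cyp3a18, a steroid hydroxylase of the PXR-responsive Cyp3a family, showed the same shape at a lower level. It lay at 1.34, 0.79 and 1.19 in DMSO, at 1.44, 1.16 and 1.49 at 10 uM, at 1.72, 1.44 and 1.91 at 30 uM and at 0.91, 0.74 and 1.20 at 100 uM (change -0.73, SE 0.149, adjusted p = 0.000952). Cyp3a23-3a1, the inducible member of that family, stayed up: it lay at 3.76, 3.65 and 3.75 at 30 uM and at 3.67, 3.50 and 3.56 at 100 uM, above 3.32, 2.52 and 2.52 in DMSO. Its change from 30 to 100 uM was -0.14 (95% interval -0.46 to 0.17, adjusted p = 0.571). Without the block the change of Cyp3a18 was not called (adjusted p = 0.072).

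The mu-class glutathione transferases Gstm2 and Gstm3 had changes of -0.50 (SE 0.143, adjusted p = 0.0146) and -0.55 (SE 0.133, adjusted p = 0.00461) after rises of 0.56 and 0.55 to 30 uM. Gstm2 lay at 3.02, 2.70 and 2.62 in DMSO and at 3.25, 3.13 and 3.07 at 10 uM, and Gstm3 had means of 2.27 ± 0.48 in DMSO, 2.56 ± 0.40 at 10 uM, 2.82 ± 0.40 at 30 uM and 2.27 ± 0.72 at 100 uM (SD, n = 3). For both, 10 uM lay between DMSO and 30 uM in each code. In Gstm2 the fall was small in Rs256, from 3.40 to 3.23, and large in Rs293, from 3.25 to 2.46; without the 100 uM array of Rs293 it was -0.35 and without the 30 uM array of Rs304 -0.46, neither called. The others named for this shape were Pmp22, a membrane protein (-0.60), Vim, vimentin (-0.47), Klkb1, plasma prekallikrein (-0.42), and the chemokine Cxcl9 (-0.48). Pmp22 had means of 1.21 ± 0.27 in DMSO, 1.35 ± 0.19, 1.51 ± 0.21 and 0.91 ± 0.29 at 10, 30 and 100 uM. Vim had means of 2.56 ± 0.30, 2.62 ± 0.20, 2.75 ± 0.23 and 2.28 ± 0.20 in the same order, and Klkb1 means of 0.46 ± 0.47, 0.61 ± 0.50, 1.07 ± 0.54 and 0.65 ± 0.26. In Pmp22, Vim and Klkb1 the mean at 10 uM was nearer to DMSO than to 30 uM or about midway. Cxcl9 stood at 0.25, 0.54 and 0.64 in DMSO, at 0.74, 1.26 and 1.59 at 10 uM, at 0.98, 1.31 and 1.86 at 30 uM and at 0.82, 0.71 and 1.17 at 100 uM. Vim was under its DMSO level at 100 uM by 0.27 (adjusted p = 0.00021), whereas Klkb1 and Cxcl9 were not below it. None of Gstm2, Gstm3, Pmp22, Vim, Klkb1 and Cxcl9 was called without the block, where their adjusted p ran from 0.059 to 0.61. Klkb1 was not called without the 30 uM array of Rs256 (-0.36) or the 100 uM array of that code (-0.30), and Cxcl9, at -0.36 to -0.53, was not called with any 1 of 5 of the 6 arrays left out.

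Of 17 PXR and CAR targets 8 were above DMSO at 30 uM and 0 below, beside 1.75% and 0.867% of all genes. From 30 to 100 uM 1 rose and 5 fell, beside 9.7% and 9.48%, with a median of -0.14. Of the 8 raised at 30 uM, 2 fell, Ugt2b1 and Cyp3a18. At 100 uM 5 of the 17 were above DMSO and 3 below (15.7% and 13.6% of all genes). Abcb1a, a drug efflux pump, was the rise, from 0.45, 0.28 and 0.34 to 0.92, 0.88 and 0.64 (change 0.46, SE 0.0703, adjusted p = 5.81e-05). Alas1, the rate-limiting enzyme of heme synthesis, fell by 0.56 (SE 0.15, adjusted p = 0.00972), but the change lay in Rs256, from 2.86 to 1.46, and without the 30 uM array of that code it was -0.37 and without the 100 uM array -0.29, neither called. Ces2c, a carboxylesterase, fell by 0.43 (SE 0.056, adjusted p = 6.91e-06), with no change at 30 uM (-0.03, adjusted p = 0.893). Of 6 AhR targets 2 rose, Nqo1 and Tiparp, a feedback regulator of that receptor. Tiparp went from 0.87, 0.73 and 0.74 to 1.11, 1.22 and 1.18 (change 0.39, SE 0.0598, adjusted p = 5.75e-05). Cyp1a1, the classical AhR target, was high in every array and had a change of 0.17 (SE 0.0869, adjusted p = 0.183).

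**Figure D4:**
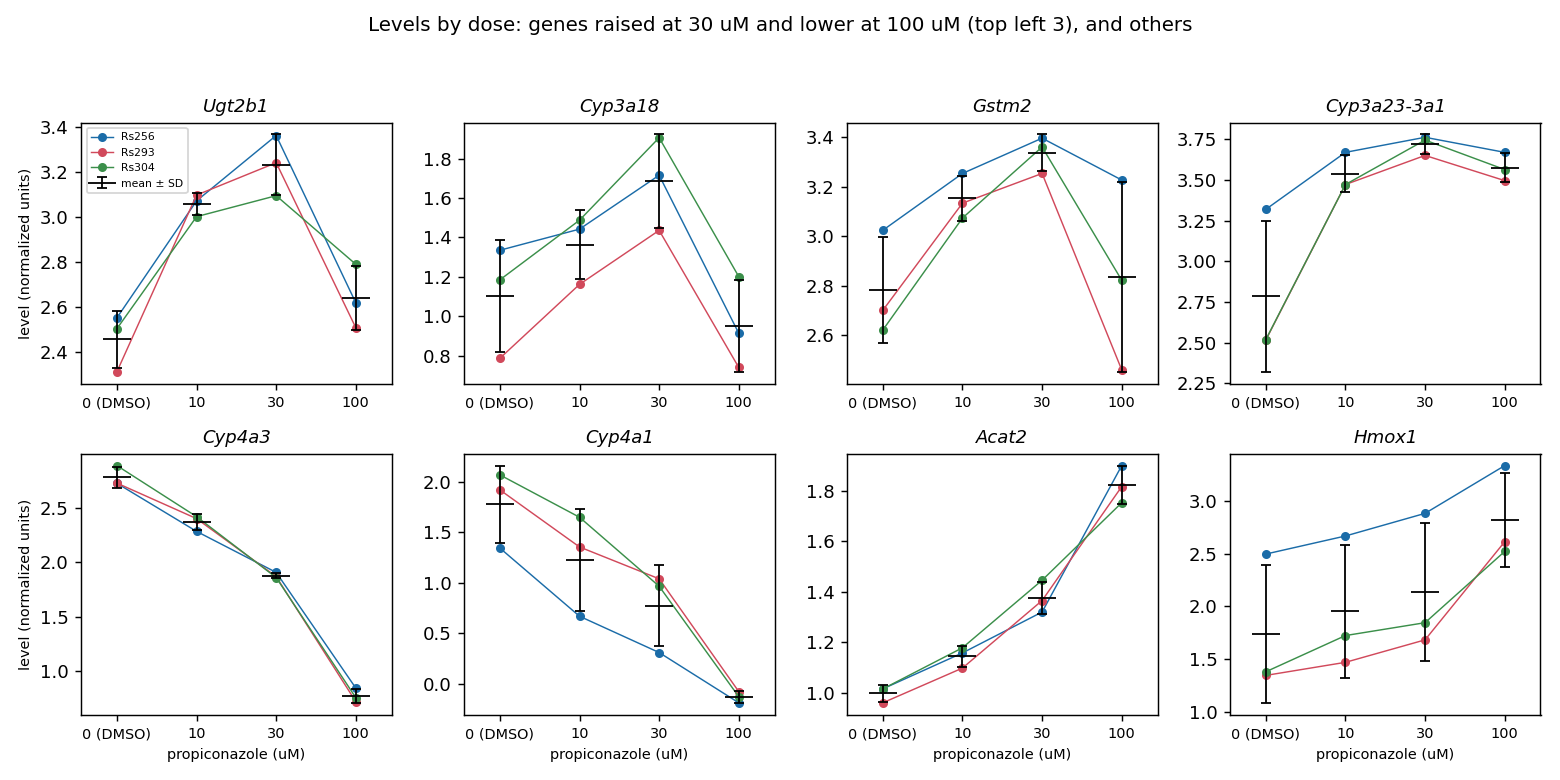
Levels in normalized units against the dose of propiconazole for 8 genes, with coloured points and lines for the 3 Rs codes and black bars for the mean ± SD of 3 arrays. Ugt2b1, Cyp3a18 and Gstm2 rise to 30 uM and are lower at 100 uM, Cyp3a23-3a1 stays near its 30 uM level, and Cyp4a3 and Cyp4a1 fall at each dose.

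Of 31 genes of constitutive drug metabolism tested, 14 fell and 2 rose at the top dose, beside 9.48% and 9.7% of all genes, with a median of -0.18. Cyp2c11, the main male P450 of rat liver, lay at 3.13, 2.96 and 3.12 at 30 uM and at 2.25, 1.98 and 2.52 at 100 uM (change -0.82, SE 0.0763, adjusted p = 7.57e-08). DMSO lay between them at 2.78, 2.64 and 2.96. Sult1a1, a phenol sulfotransferase, went from 3.47, 3.44 and 3.44 to 2.60, 2.67 and 2.87 (change -0.74, SE 0.0692, adjusted p = 7.57e-08), and it lay at 3.61, 3.50 and 3.61 in DMSO. Cyp2d3 and Cyp2d2, P450s of one family, fell by 0.65 (SE 0.149, adjusted p = 0.0027) and 0.52 (SE 0.118, adjusted p = 0.00239). Without the block 5 members of the list fell, beside 2.29% of all genes, and Cyp2d3 and Cyp2d2 were not called (adjusted p = 0.17 and 0.36). On deposited values without the 30 uM array of Rs293 Cyp2c11 fell by 0.66 (adjusted p = 0.034) and Sult1a1 by 0.56, the latter not called.

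Bile acid genes, both synthetic enzymes and transporters, gave 9 falls and 0 rises among 21 tested, beside 9.48% and 9.7% of all genes, with a median of -0.22. Baat, which joins bile acids to amino acids, went from 1.48, 1.67 and 1.54 to 0.61, 1.06 and 0.99 (change -0.67, SE 0.126, adjusted p = 0.000462), after 1.84, 2.02 and 2.37 in DMSO. Cyp8b1, which sets the cholic acid share, fell by 0.54 (SE 0.166, adjusted p = 0.0241), the uptake transporter Slco1a1 by 0.47 (SE 0.0824, adjusted p = 0.000266), and Abcb4, the phospholipid exporter of the canaliculus, by 0.30 (SE 0.0674, adjusted p = 0.00258). At 30 uM 2 members were below DMSO and 1 above, beside 0.867% and 1.75% of all genes. Without the block 3 members fell, beside 2.29% of all genes, and Cyp8b1 and Slco1a1 were not called. Cyp8b1 was also not called without the 100 uM array of Rs256 (-0.26) or the 30 uM array of Rs256 (-0.49) or Rs293 (-0.53).

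Of 32 secreted and core hepatocyte genes, 13 fell and 2 rose, beside 9.48% and 9.7% of all genes, with a median of -0.12. The clotting factor F9 went from 2.59, 2.49 and 2.33 to 2.11, 1.71 and 1.69 (change -0.64, SE 0.0906, adjusted p = 1.99e-05). Fbp1, a gluconeogenic enzyme, went from 2.71, 2.39 and 2.23 to 1.86, 1.90 and 1.69 (change -0.63, SE 0.0723, adjusted p = 1.53e-06). For both genes each top-dose array was below each 30 uM array. Apoa2, an apolipoprotein, rose by 0.63 (SE 0.181, adjusted p = 0.0153), but without the 30 uM array of Rs256 its change was 0.39 and without the 100 uM array of Rs293 0.55, neither called. Alb, the brightest probe set, is fixed at 1 value by the normalization and was not measured here. On values as deposited the list median was -0.77 and on those without the 30 uM array of Rs293 it was -0.08, so the size of the shift rested on that array. Among 25 liver transcription factors 1 rose and 3 fell, Onecut1 most (-0.44, SE 0.093, adjusted p = 0.00155), and it was not called without the block (adjusted p = 0.17).

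In amino acid catabolism and the urea cycle 10 of 31 genes fell and 4 rose (median -0.05, beside 9.48% and 9.7% of all genes). Cbs, which makes cystathionine, fell by 0.47 (SE 0.0775, adjusted p = 0.000135) and Arg1, the last enzyme of the urea cycle, by 0.36 (SE 0.0692, adjusted p = 0.000597). Gnmt, a glycine methyltransferase, fell by 0.55 (SE 0.137, adjusted p = 0.00593). Tat was among the 4 rises, at 0.34 (95% interval 0.10 to 0.58). In glucose metabolism 6 of 19 genes fell and 3 rose (median -0.09). Gys2, liver glycogen synthase, went from 2.09, 2.05 and 2.02 to 1.08, 1.65 and 1.76 (change -0.55, SE 0.132, adjusted p = 0.00401), with its fall largest in Rs256. Pklr, the liver pyruvate kinase, fell by 0.44 and Khk, which starts fructose breakdown, by 0.43, with adjusted p of 0.000395 and 0.00389. Pfkfb3, a regulator of glycolysis, rose from 0.35, 0.21 and 0.16 to 0.72, 0.65 and 0.56 (change 0.40, SE 0.0591, adjusted p = 3.1e-05). The other tested probe set of Pfkfb3 had a change of 0.05 (adjusted p = 0.61 with each probe set a feature). Without the block 2 genes of the amino acid list and 4 of the glucose list fell, beside 2.29% of all genes. Cbs and Gnmt were not called there.

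Of 22 acute phase and complement genes 8 fell and 3 rose, beside 9.48% and 9.7% of all genes, and Serpina3c was among the rises. Crp, C-reactive protein, went from 3.54, 3.15 and 3.38 to 3.08, 2.86 and 3.03 (change -0.37, SE 0.0677, adjusted p = 0.000425), back to its DMSO levels of 3.02, 3.09 and 2.90. Mbl2, a lectin of the complement pathway, fell by 0.50 (SE 0.144, adjusted p = 0.0147), and C5 by 0.29 (SE 0.0567, adjusted p = 0.000745). The other probe set of Mbl2 had a change of -0.21 (adjusted p = 0.3 with each probe set a feature). Hamp, hepcidin, rose by 0.72 (SE 0.247, adjusted p = 0.0425), with 0.40, 0.84 and 0.25 against 1.85, 1.12 and 0.66. Its groups overlapped, and without the 30 uM array of Rs256 the change was 0.40, without the 100 uM array of Rs256 0.63 and without that of Rs304 0.71, none of them called. Mbl2 was not called without the 100 uM or the 30 uM array of Rs256 (-0.30 and -0.39), and C5, Mbl2, Hamp and Il1r2 were not without the block. Of 16 genes of inflammation 1 rose, the decoy receptor Il1r2 (0.66, SE 0.166, adjusted p = 0.00627), and 1 fell, Cxcl9.

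Of 17 genes of sterol synthesis 5 rose and 1 fell, beside 9.7% and 9.48% of all genes, with a median of 0.19. Acat2, which makes acetoacetyl-CoA, went from 1.32, 1.37 and 1.45 to 1.90, 1.82 and 1.75 (change 0.45, SE 0.0614, adjusted p = 1.41e-05). Cyp51, the mammalian counterpart of the fungicide target, went from 2.60, 2.65 and 2.55 to 2.99, 2.92 and 2.64, so its groups overlapped. Its change was 0.25 (SE 0.0933, 95% interval 0.06 to 0.44) and was not called (adjusted p = 0.06), and its step less the one from 10 to 30 uM was 0.03 (95% interval -0.31 to 0.36). The other probe set of Cyp51 rose by 0.34 (adjusted p = 0.00236 with each probe set a feature). Ebp, Mvd, Sc5d and Fdft1 rose by 0.28, 0.26, 0.23 and 0.22. Other probe sets of Sc5d had changes of 0.0044 and 0.14 (adjusted p = 0.958 and 0.175 with each probe set a feature). The rises of Sc5d and Fdft1 turned to -0.065 and -0.071 on values as deposited. Dhcr7, the last enzyme of cholesterol synthesis, fell from 2.02, 2.49 and 2.05 to 1.71, 2.03 and 1.60 (change -0.40, SE 0.0743, adjusted p = 0.0004). On values as deposited 0 members rose, beside 2.33% of all genes, and the list median was -0.13. On those without the 30 uM array of Rs293 the median was 0.19. Without the block Acat2 was the 1 member called, beside 2.38% of all genes higher and 2.29% lower. Mvd was not called without the 100 uM (0.07) or the 30 uM (0.21) array of Rs256, or the 30 uM array of Rs293 (0.27).

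Among 9 genes of sterol sensing and uptake 2 rose and 1 fell, beside 9.7% and 9.48% of all genes. The 20 genes of fatty acid synthesis and desaturation also gave 2 rises and 1 fall. Stard4, a cholesterol carrier, rose by 0.30 (SE 0.0426, adjusted p = 1.99e-05). Other probe sets of Stard4 had changes of -0.03 and 0.09 (adjusted p = 0.718 and 0.273 with each probe set a feature). Scap, the escort of the transcription factor SREBP, rose by 0.23 (SE 0.0457, adjusted p = 0.000976), while Insig2, which holds that escort back, fell by 0.40 (SE 0.0938, adjusted p = 0.00376). Stard4, Scap and Insig2 were the 3 calls among 9 genes. Of 20 genes of fatty acid synthesis and desaturation Fads2, a desaturase, rose from 0.69, 0.91 and 1.04 to 1.22, 1.41 and 1.21 (change 0.40, SE 0.068, adjusted p = 0.00016). Pnpla3 rose by 0.37 (SE 0.122, adjusted p = 0.0347) and Acly, which supplies acetyl-CoA, fell by 0.29 (SE 0.0739, adjusted p = 0.00757). Other probe sets of Pnpla3 had changes of 0.25 and 0.13 (adjusted p = 0.032 and 0.414 with each probe set a feature). Insig2, Pnpla3 and Acly were not called without the block, Acly was not without the 30 uM array of Rs256 (-0.22), and Pnpla3, at 0.30 to 0.40, was not with any 1 of 5 of the 6 arrays left out.

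Of 25 genes listed for lysosomes and phospholipid storage 8 rose and 1 fell, beside 9.7% and 9.48% of all genes. The median was 0.08, or -0.19 on values as deposited and 0.09 there without the 30 uM array of Rs293. Gpnmb, a membrane glycoprotein of lysosomes, went from 1.13, 1.80 and 2.25 to 1.92, 2.63 and 2.76 (change 0.71, SE 0.0943, adjusted p = 8.8e-06), with groups that overlapped, and it was not called without the block (adjusted p = 0.44). Cd68, a lysosomal glycoprotein that is also a marker of macrophages, went from 0.50, 0.06 and 0.25 to 1.02, 0.73 and 1.17 (change 0.70, SE 0.0867, adjusted p = 3.49e-06). The rises of Npc2, Ctsa and Ctsl, 0.32, 0.20 and 0.20, became -0.07, -0.13 and -0.54 on values as deposited. Plin2, the lipid droplet coat protein listed here as well, was the fall.

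Markers of other cell types were read on the same arrays. Their counts of calls stand beside 9.7% of all genes higher and 9.48% lower. Of 15 macrophage markers 5 lay above the array median on all 6 arrays and 8 below it on all 6, and the mean level of the list ran from 0.07 to 0.19 at 100 uM and from 0.02 to 0.19 at 30 uM. Of the 7 tested, Cd68 and Cd14 (0.26, SE 0.0904, adjusted p = 0.041) rose. Of 19 stellate cell and fibroblast markers 3 were above the median on all 6 arrays, and of 12 tested Timp1 (0.26) and Dcn (0.11) rose and Lox fell, none of the 3 called without the block. Cd14, Timp1 and Dcn each lost the call with any 1 of 4 of the 6 arrays left out, at 0.15 to 0.24, 0.19 to 0.26 and 0.07 to 0.11, and Cd14 was not called without the block (adjusted p = 0.8). Of 13 endothelial markers 11 lay below the median on all 6 arrays and neither of the 2 tested was called. Epcam, among 6 cholangiocyte markers, fell by 0.20 (SE 0.0419, adjusted p = 0.00162). The part of these cells in the changes was not tested, and fewer cells of a type and less RNA per cell cannot be told apart in bulk RNA.

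Counts of the other lists stand beside the same 9.7% of all genes higher and 9.48% lower. Of 28 heat shock and proteasome genes 3 rose (Hspb1, Hspe1 and Hspb8), of 28 genes of mitochondrial respiration 2 fell, of 33 cytoskeleton and adhesion genes 3 rose and 3 fell, and of 19 steroid and retinoid genes 2 rose and 4 fell. Ccn2, a matrix-bound growth factor, fell by 0.63 (SE 0.158, adjusted p = 0.00594), from 1.79, 2.86 and 2.70 to 1.71, 1.85 and 1.91, with a small change in Rs256. It was not called without the 100 uM array of Rs293 (-0.48) or without the block. Of 8 ribosomal protein genes 3 rose, Rpl27, Rpl18 and Rps3, and all 3 had negative changes on values as deposited (-0.06, -0.22 and -0.34). Rpl27 lay at 2.15 on the 30 uM array of Rs256 and at 3.17 and 3.19 in the other 30 uM arrays, and at 3.21, 3.28 and 3.31 at 100 uM. Without that array its change was 0.11 and not called, and on values as deposited the list median was -0.49. Hspe1 and the splicing gene Snrpd2 were low on the same array, at 1.87 and 1.29, and without it their changes were 0.19 and 0.21 and not called. Hspe1 and Rpl27 were also not called without the 100 uM array of Rs293 (0.42 and 0.44), and Rpl27 was not without the 100 uM array of Rs256 (0.40) or Rs304 (0.45). The rise of Hspb8, 0.21, became -0.10 on values as deposited.

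The same step from 30 to 100 uM was available for the 2 other triazoles. Beside the triazole ring propiconazole carries a dioxolane ring, myclobutanil a nitrile and triadimefon a ketone. At matched doses and time, myclobutanil changed 70 genes between 30 and 100 uM (0.667%) and triadimefon 4 (0.0381%). The propiconazole step differed from that of myclobutanil for 93 genes (0.887%) and from that of triadimefon for 59 (0.562%), the p-values being adjusted over all genes within each of the 2 pairs compared. Without the block 0 genes were called against either (limma), while 535 and 385 had an unadjusted p below 0.05.

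For Sfn the step was larger with propiconazole by 1.03 than with myclobutanil (95% interval 0.83 to 1.24, adjusted p = 1.58e-06) and by 0.94 than with triadimefon (adjusted p = 1.14e-05). Both differences were called in 10 of 11 other settings and were lost without the block (adjusted p = 0.228 and 0.236). Serpina3c (0.78 and 0.77), Serpina3l (0.75 and 0.70), Sdcbp2 (0.72 and 0.62) and Ddit3 (0.55 and 0.54) also rose more with propiconazole than with myclobutanil and triadimefon. Hrg (-0.79 and -0.76), Cyp2c11 (-0.54 and -0.67) and Sult1a1 (-0.57 and -0.52) fell more with propiconazole. These 7 were less stable: Serpina3c was called in 8 of 11 other settings against each triazole and Sult1a1 in 3 of 11, and none of these differences was called without the block.

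PPARalpha targets separated the compounds unevenly. Of 26 targets 7 fell more with propiconazole than with triadimefon and 2 more than with myclobutanil, beside 0.286% and 0.458% of all genes. Within myclobutanil itself 9 of them fell between 30 and 100 uM, beside 0.334% of all genes. Within triadimefon 0 of them fell, beside 0.0191% of all genes. Eci1 fell more by 0.87 against triadimefon, a difference of -0.87 (adjusted p = 0.000198), and by -0.47 against myclobutanil (adjusted p = 0.0395). Angptl4 differed by -0.93 from triadimefon (adjusted p = 0.00655) and by -0.63 from myclobutanil (95% interval -0.98 to -0.29, adjusted p = 0.0631). Cyp4a3 differed by -0.36 from myclobutanil (95% interval -0.84 to 0.13) and Cyp4a1 by -0.18 (95% interval -0.77 to 0.41), intervals that leave room for differences either way.

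Cyp51 and Acat2 were not called against either compound. The step of Cyp51 differed by -0.05 from that of myclobutanil (95% interval -0.33 to 0.22) and by 0.21 from that of triadimefon (95% interval -0.06 to 0.48), and that of Acat2 by -0.04 (95% interval -0.22 to 0.14) and 0.17 (95% interval -0.0050 to 0.35). Dhcr7 was called against myclobutanil, at -0.47 (adjusted p = 0.0275). Among NRF2 targets Gstp1 and Nqo1 rose more than with myclobutanil, by 1.21 and 0.67 (adjusted p = 0.0218 and 0.0111), while Hmox1 differed by 0.24 (95% interval -0.08 to 0.55). Against triadimefon Gstp1 differed by 0.91 (95% interval 0.39 to 1.44, adjusted p = 0.127).

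**Figure D5:**
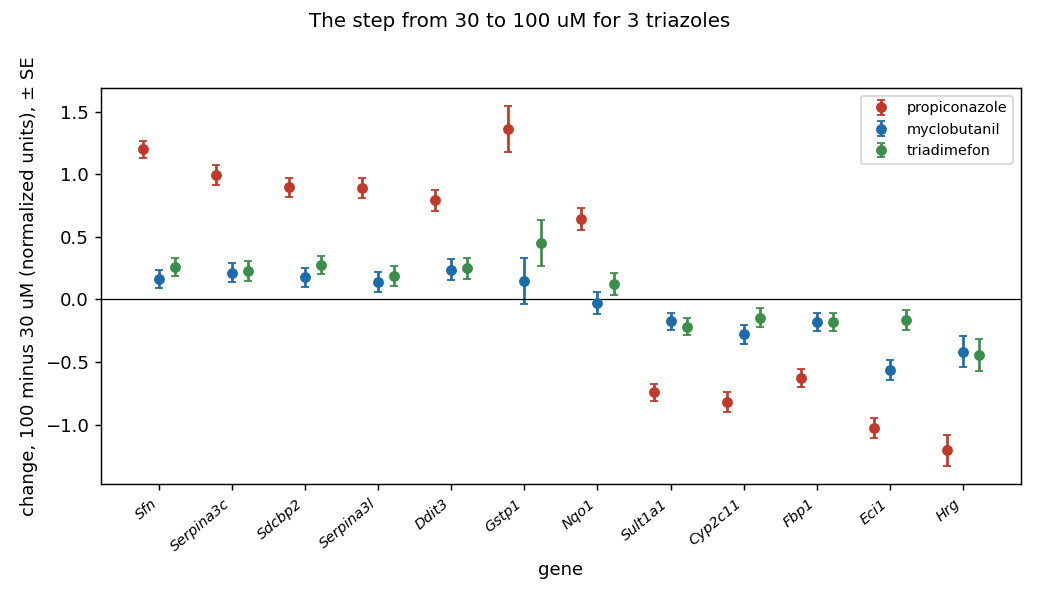
Change from 30 to 100 uM in normalized units for 12 genes with propiconazole, myclobutanil and triadimefon; points are fitted changes and bars their SE. The propiconazole step of Sfn (1.20) and of Hrg (-1.21) lies farther from 0 than the steps of the other triazoles.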

How the data were processed

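The arrays measured total RNA of cultured hepatocytes as labelled cRNA on Affymetrix rat genome arrays, per the labels' protocols. The deposited values are a log-like score per probe set, named so because the base, background correction and normalization are not given in the sources used here. Array medians lie near 0. From these values, each array was quantile normalized, and 1 probe set per gene was kept, the one with the highest mean among those naming that gene alone. Of 14217 genes, 10490 lay above the array median on at least 2 of the 35 arrays and were tested.

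A linear model was fitted to all 35 arrays with limma 3.58.1 in R 4.3.3, with 1 mean for each of the 12 groups and the Rs code as a block, and p-values were adjusted by Benjamini-Hochberg over all genes tested. The codes were taken as pairing the arrays: deviations from the group means correlated at 0.361, 0.296 and 0.458 for Rs256, Rs293 and Rs304, and at -0.335 to 0.071 between unlike codes. Within each group these deviations cancel out, so the values between unlike codes follow in part from those of like codes. The range between unlike codes is therefore no separate sign of pairing. The step difference and the comparisons with other triazoles are contrasts of the same fit. The fit was tested on simulated data. Python 3.11.15 and matplotlib 3.10.9 were used for tables and figures.

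Genes were named by a rule: the 12 largest rises and falls called and alike in direction in all 3 codes, up to 6 called members of each list, up to 8 genes for each other contrast, and 10 fixed genes, of which 9 were tested, 136 in all. Other list members are named with their values where a list is described, and were chosen after those were seen. The comparison, lists and rule were chosen with earlier results of these data known. Alternatives were the block, the scaling, the filter, probe sets, array weights, fewer arrays and arrays left out; values as deposited without the 30 uM array of Rs293, and centring with scaling to a common SD, were added after seeing the data. The number of arrays limits the precision.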

Additional observations from a re-analysis of the deposited data

Results flagged for a closer look

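Of 136 named genes, 26 had a change from 30 to 100 uM that differed between propiconazole and another triazole by the test of the difference itself, 20 of them against myclobutanil and 16 against triadimefon. Some genes were named because both of these tests called them, and others because their propiconazole change was among the largest. The counts are therefore raised by the naming rule. Over all genes, 0.887% were called against myclobutanil and 0.562% against triadimefon. Differences are propiconazole minus the other compound, in normalized units.

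Against both compounds, the step of propiconazole was higher for Sfn (1.03 against myclobutanil and 0.94 against triadimefon), Serpina3c (0.78 and 0.77), Serpina3l (0.75 and 0.70), Sdcbp2 (0.72 and 0.62) and Ddit3 (0.55 and 0.54). It was lower against both for Hrg (-0.79 and -0.76), Eci1 (-0.47 and -0.87), Cyp2c11 (-0.54 and -0.67), Sult1a1 (-0.57 and -0.52) and Fbp1 (-0.45 and -0.44).

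Against myclobutanil alone by the test, it was higher for Gstp1 (1.21), Nqo1 (0.67), Cd68 (0.58) and Pcna (0.26), and lower for Klkb1 (-0.70), Ugt2b1 (-0.59), Pklr (-0.49), Vim (-0.48), Dhcr7 (-0.47) and Cs (-0.19). Of the other tested probe sets of Cs, 1 had a change of 0.19 from 30 to 100 uM (adjusted p = 0.00955), opposite to the -0.19 of the one used, and 1 a change of -0.097 (adjusted p = 0.136). Against triadimefon alone it was higher for Hspb1 (0.52) and lower for Angptl4 (-0.93), Rarres2 (-0.65), Vnn1 (-0.62), Plin2 (-0.40) and Ces2c (-0.36). A gene called against 1 compound is not thereby shown to differ between the other 2.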

How the results depend on the processing

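Without the replicate block the main comparison called 490 genes (250 higher, 240 lower) in place of 2012; the difference of dose steps called 4, the comparisons with myclobutanil and triadimefon 0 and 0 (limma; 535 and 385 at an unadjusted p below 0.05), and the 10, 30 and 100 uM doses against DMSO 1, 4 and 1255. On values as deposited these counts were 1301 (244 higher), 34, 6, 4, 0 (limma; 124 at an unadjusted p below 0.05), 138 and 1401, and with median centring 1366 (302 higher), 78, 9, 5, 0 (limma; 160 at an unadjusted p below 0.05), 215 and 1508. On values as deposited without the 30 uM array of Rs293 they were 733 (439 higher, 294 lower), 2, 2, 3, 1 and 3. With each probe set a feature the main comparison called 3145 (1644 lower), the triadimefon comparison 112 and 100 uM against DMSO 4867. The main comparison called 110 on its 6 arrays alone (32 higher, 78 lower), 1339 on propiconazole and DMSO arrays (615 higher) and 1236 with array weights (624 higher, 612 lower). Centring with scaling gave 1 at 10 uM. Leaving out 1 code or array gave 780 to 1944 genes (329 to 934 higher, 451 to 1010 lower), 20 to 344 for the step difference, 1 to 57 and 2 to 30 against myclobutanil and triadimefon, and 1 to 3, 37 to 140 and 1536 to 2563 against DMSO.

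Rises that turned on values as deposited and with median centring were Sc5d (-0.065 and -0.055), Fdft1 (-0.071 and -0.061), Gadd45a (-0.012 and -0.0021), Ccng1 (-0.19 and -0.18), Npc2 (-0.066 and -0.056), Ctsa (-0.13 and -0.12), Ctsl (-0.54 and -0.53, and -0.046 with centring and scaling), Hspb8 (-0.098 and -0.088), Rpl27 (-0.060 and -0.051), Rpl18 (-0.22 and -0.21) and Rps3 (-0.34 and -0.33). The cause was not tested. Of 132 named genes called, 34 remained so without the block, in both of these scalings and without each code. Probe sets under the array median limit what falls can be read.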
